A study of Rattus norvegicus with 7 samples.

Results

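Axon guidance and growth genes were followed through the week after an embolic stroke in rat brain. They were the genes whose symbol on the array named a class 3 to 7 semaphorin, a plexin, an ephrin or Eph receptor, a netrin or Unc5 receptor, a Slit or Robo receptor, a contactin, Nogo or a Nogo receptor, a stathmin, a collapsin response mediator (Dpysl), the neuropilin Nrp2, Gap43 or Sprr1a. The rule read symbols only. It gave 72 of 13337 genes, read by 75 probes, and the probe with the highest mean intensity stood for each of the 3 genes with more than 1. Of the 72 genes, 63 were detected on at least 1 array and 47 on all 7. The 9 genes detected on no array were Cntn5, Dpysl2, Efna4, Epha10, Ephb2, Robo4, Sema3g, Unc5cl and Unc5d. A gene that its probe did not detect is not shown to be absent from the tissue. Unc50, Unc5cl and Rtn4ip1 matched by their letters and are not guidance receptors or Nogo proteins.

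A growing axon is steered by ligands that attract or repel its tip, the growth cone. Semaphorins act through plexins, secreted class 3 semaphorins with neuropilins as co-receptors, ephrins through Eph receptors, netrins through Dcc and Unc5 receptors, and Slits through Robo receptors. These signals converge on small GTPases and on the proteins that build microtubules and actin, among them the stathmins and the collapsin response mediators. In the adult brain many of the same molecules stabilise synapses or, like Nogo in myelin, restrain growth, and Gap43 and Sprr1a are known as genes that injured neurons of rodents switch on when an axon regrows.

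Messenger RNA was measured on 7 Illumina bead arrays, 1 for each group, with 400 ng of total RNA. The 6 stroke arrays, from rats with an embolus injected into the middle cerebral artery (eMCAo), stand for 12, 24, 48, 72, 120 (5 days) and 168 hrs (7 days), and 1 array for normal rats, which had no surgery. All were male Wistar rats of 280 to 320 g, of an age that the labels do not give. The labels call the tissue ischemic brain for all 7 arrays, normal included, and name neither the region taken nor the number of animals in an RNA sample. Detected means brighter than the 98th percentile of the array's negative values with their sign turned, and 8656 to 9066 genes were detected per array. Each value below is a deposited intensity, in background-subtracted brightness units that are not scaled between arrays, and each difference is log2(time/normal) after scaling the arrays to 1 distribution with 16 units added, which understates the change of dim genes. A gene was called higher or lower where this difference reached 2-fold and either of the compared arrays detected it. With 1 array per group this is a rule of size without a test, precision is limited by how few arrays there are, and all 6 comparisons share the 1 normal array. The most similar pair of arrays, 120 against 72 hrs, gives a yardstick, because 95% of the 8646 genes detected on both differed by less than 0.61 on the log2 scale and 1.42% by 2-fold or more. It was picked for the smallest spread of all pairs, so a difference beyond it need not exceed the spread between arrays.

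Most axon guidance genes stayed within 2-fold of normal at every time. Of the 63 detected members 7 were called at 1 or more times, against a background of 18.9% of all detected genes. These shares are not matched for brightness, and the units added before log2 understate the change of dim genes. Of the 24 members with a mean intensity of at least 100, 5 were called. The share for all genes as bright was not computed. With low values set to a floor in place of the background model, more members and more of all genes were called at each time from 12 to 120 hrs. The count therefore does not show that members changed less than other genes. Sprr1a and Plxnb2 were higher, 3.17% of the members against 12.1% of all genes. Epha4, Efnb3, Rtn4r, Cntn4 and Plxna2 were lower, 7.94% of the members against 7.07% of all genes. Without the 120 hrs array the lower count was 3, because Cntn4 and Plxna2 were called only there. No member was called on all 6 arrays in either direction, where 0.815% of all genes were higher and 0.199% lower. At 12 hrs no member was called higher or lower (background 3.16% and 0.903%). At 24 hrs 1 was higher and 1 lower (background 4.55% and 2.69%), at 48 hrs 1 and 2 (background 6.04% and 2.63%), and at 72 hrs 1 and 2 again (background 8.28% and 4.01%). At 120 hrs 1 was higher and 3 lower (background 9.09% and 4.78%), and at 168 hrs 1 was higher and none lower (background 5.01% and 0.914%). Between 57 and 60 members were detected on either array of a comparison.

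**Figure D1:**
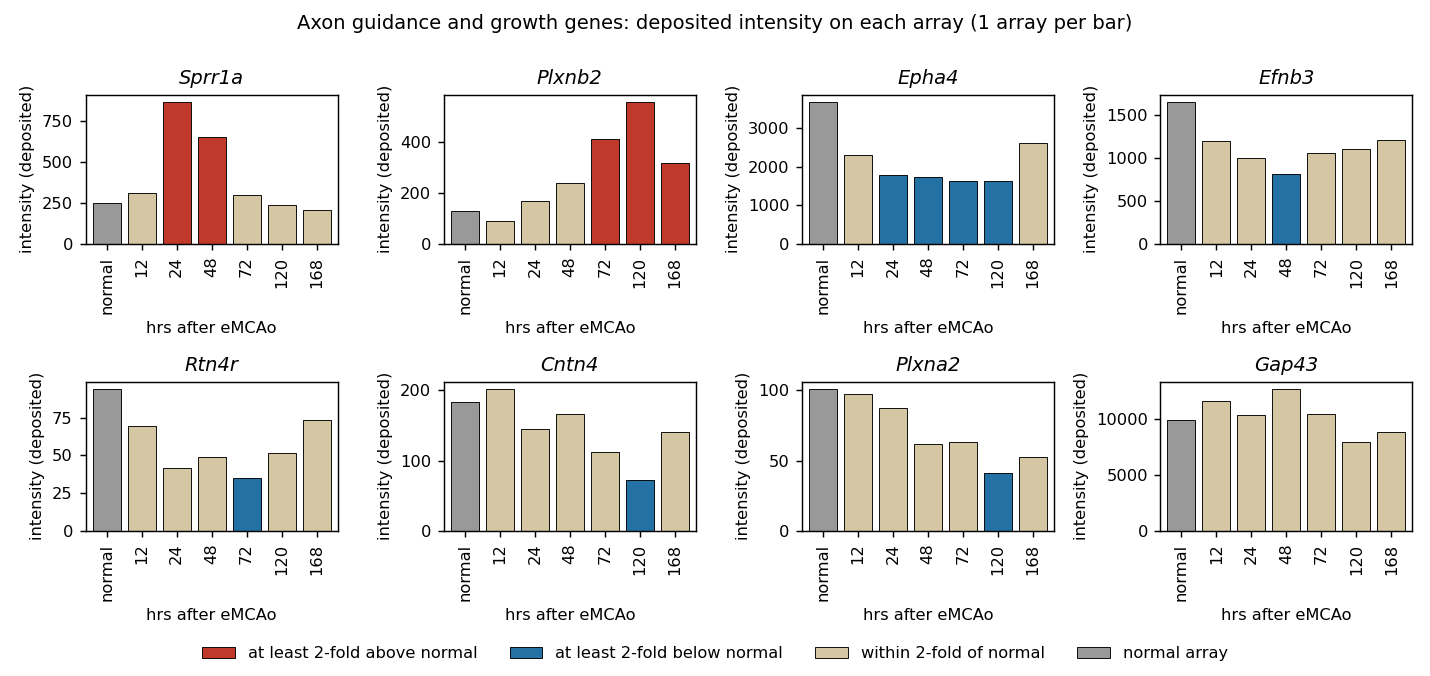
Bars give the deposited intensity of 8 members on the normal array and at 12 to 168 hrs after eMCAo, 1 array per bar, with the scale of each panel starting at 0. Red bars were at least 2-fold above normal after scaling and blue bars at least 2-fold below. Sprr1a was highest at 24 hrs (870), Plxnb2 at 120 hrs (557), and Epha4 was below its normal value of 3692 at all 6 times.

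Among the ephrins and their receptors, Epha4 gave the longest departure from normal of any member. EphA4 is a receptor of neurons and astrocytes that binds ephrins of both classes and repels growing axons. Its intensity was 3692 (normal), 2296 (12 hrs), 1788 (24 hrs), 1744 (48 hrs), 1621 (72 hrs), 1629 (120 hrs) and 2624 (168 hrs). All 6 arrays after eMCAo lay below the normal array, the 4 arrays from 24 to 120 hrs by more than 2-fold. Epha4 was lower by 2.19-fold on both the 24 and the 48 hrs array, by 2.85-fold on the 72 hrs array and by 2.62-fold on the 120 hrs array, and at 72 hrs 0.925% of 9409 genes lay as far below normal or farther. At 168 hrs its difference was -0.53, inside the yardstick of 0.61.

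Efnb3 encodes ephrin-B3, a membrane-bound ligand that binds EphA4 as well as EphB receptors and is known as a midline barrier of the corticospinal tract in mice. Its intensity was 1651 (normal), 1189 (12 hrs), 995 (24 hrs), 809 (48 hrs), 1060 (72 hrs), 1100 (120 hrs) and 1205 (168 hrs). It was below normal at all 6 times and 2.13-fold lower at 48 hrs, the only time past the size rule. Efnb1 (ephrin-B1), another B-class ligand, went the other way, with 113 in normal brain and 179, 231, 157, 168, 187 and 123 in order of time. It lay above normal on all 6 arrays under each of 3 scalings, by at most 0.77 at 24 hrs and by only 0.04 at 168 hrs, and never reached 2-fold.

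The remaining Eph receptors were mostly below normal. Ephb1 was the lowest of all members at 12 hrs, with 253 in normal brain and 126, 136, 167, 169, 209 and 217 after eMCAo. Its difference of -0.95 at 12 hrs shrank to -0.27 at 168 hrs without reaching 2-fold. Epha5 had its lowest value at 120 hrs, with 165 against 283 in normal brain, a difference of -0.96. Ephb6, whose kinase is inactive, differed by 0.63 at 24 hrs and by -0.84 at 120 hrs. Epha5 and Ephb6 also passed 2-fold at 120 hrs with the floor (-1.09 and -1.05). Epha2 was detected on 2 arrays only and its highest intensity was 16.7, too dim for a fold.

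The semaphorins did not move as a group. Of 17 measured genes none was called at any time, and the median of the detected ones lay between -0.33 (72 hrs) and -0.02 (168 hrs), with a sign at 12, 120 and 168 hrs that depended on the scaling. Sema4a, a membrane semaphorin also known from immune cells, was above normal on all 6 arrays under each of 3 scalings, with 743 in normal brain and 970, 1116, 1079, 1064, 1255 and 1027 after eMCAo. Its largest difference was 0.53 at 120 hrs, inside the yardstick. Sema7a, which is anchored to the membrane and promotes axon growth through integrins, had 877 in normal brain and 944, 868, 755, 693, 608 and 679 after eMCAo. Its lowest value stood at 120 hrs, with a difference of -0.74. Sema4g differed by -0.95 at 120 hrs, with 42.6 against 89.0 in normal brain. Sema6d was the highest of all members at 12 hrs, where it had 32.9 against 6.98 in normal brain, in which it was not detected. On its other arrays Sema6d had 13.5, 14.7, 15.4, 14.3 and 10.7, so the difference of 0.82 rested on the 12 hrs array.

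The plexins, receptors of the semaphorins, split. Plxnb2 encodes plexin-B2, a receptor of class 4 semaphorins that is known from neural progenitors and from macrophages and microglia. Its intensity was 129 (normal), 88.3 (12 hrs), 170 (24 hrs), 240 (48 hrs), 412 (72 hrs), 557 (120 hrs) and 319 (168 hrs). The 12 hrs array lay below normal and the later ones above it, by 2.27-fold (72 hrs), 3.16-fold (120 hrs) and 2.13-fold (168 hrs), where the call was lost with 50 units added in place of 16 (0.96). At 120 hrs 4.77% of 9389 genes were as far above normal or farther. Plxna2 encodes plexin-A2, a receptor of class 3 and class 6 semaphorins, and it ran in the opposite direction. It had 101 (normal), 97.6 (12 hrs), 87.6 (24 hrs), 61.6 (48 hrs), 62.9 (72 hrs), 41.4 (120 hrs) and 52.8 (168 hrs). It was 2.19-fold lower at 120 hrs and the lowest of all members at 168 hrs, with a difference of -0.72, although the 120 hrs call was lost without normalization between arrays (-0.89) and with 50 units added (-0.83). Plxnd1, a plexin of vessels and neurons, differed by -0.77 (12 hrs), -0.68 (24 hrs) and -0.63 (48 hrs), and its sign at 72 and 120 hrs depended on the scaling. Nrp2, the co-receptor of class 3 semaphorins, had differences between -0.15 and 0.19.

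Slits, netrins and their receptors gave no call with the background model used here, but some did with a floor of 16 in its place. All 3 Slits lay below normal at 48, 72 and 120 hrs, with medians of -0.52, -0.57 and -0.55, and Slit3 differed most, by -0.86 at 72 hrs and -0.85 at 120 hrs (-1.55 and -1.54 with the floor). Robo2, their receptor, had 43.5 in normal brain and 20.5, 17.6, 31.5, 24.4, 15.98 and 38.6 after eMCAo. Its difference was -0.89 at 120 hrs and -0.15 at 168 hrs, and with the floor it passed 2-fold at 12, 24, 72 and 120 hrs (-1.65 at 120 hrs). Among the netrin receptors Unc5c had 252 in normal brain and 271, 197, 192, 198, 162 and 205 after eMCAo, lowest at 120 hrs (-0.82). The 3 netrins were dim, with no intensity above 20.8.

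Of the contactins, adhesion molecules that sit on the axon surface, Cntn4 was the one past the rule. Its intensity was 183 (normal), 202 (12 hrs), 146 (24 hrs), 166 (48 hrs), 112 (72 hrs), 72.0 (120 hrs) and 140 (168 hrs). It was 2.56-fold lower at 120 hrs and within the yardstick at 168 hrs. Rtn4r encodes the Nogo receptor, through which Nogo and other myelin proteins collapse growth cones. It had 94.2 (normal), 69.8 (12 hrs), 41.8 (24 hrs), 49.1 (48 hrs), 34.8 (72 hrs), 51.7 (120 hrs) and 73.2 (168 hrs). All 6 arrays lay below normal, and Rtn4r was 2.28-fold lower at 72 hrs, a call lost without normalization between arrays (-0.96) and with 50 units added in place of 16 (-0.85). Rtn4 itself, which encodes Nogo, had 11610 in normal brain and 9575 to 11099 after eMCAo and differed by -0.63 at most, at 120 hrs.

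Sprr1a and Gap43, both known from injured or growing neurons, did not follow each other. Sprr1a encodes a small proline-rich protein of keratinised epithelium that rodent sensory neurons make after their axons are cut. Its intensity was 250 (normal), 310 (12 hrs), 870 (24 hrs), 655 (48 hrs), 297 (72 hrs), 240 (120 hrs) and 207 (168 hrs). The 24 and 48 hrs arrays stood apart from the other 5, 2.92-fold and 2.29-fold above normal, and at 24 hrs 2.05% of 9339 genes were as far above normal or farther. Of the markers of keratinised epithelium measured here, Ivl was detected on no array and Krt14 only at 24 and 48 hrs, with 16.5 and 24.6, the same arrays on which Sprr1a was high, and their part in the result was not tested. Gap43, the classic growth cone protein, had 9903 (normal), 11654 (12 hrs), 10395 (24 hrs), 12709 (48 hrs), 10416 (72 hrs), 7912 (120 hrs) and 8839 (168 hrs). Its lowest difference was -0.63 at 120 hrs and its highest 0.21 at 48 hrs, and its sign at 24 and 72 hrs depended on the scaling.

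The upstream sequence of Sprr1a is shown because it holds the AP-1 motif TGAGTCA more than once. AP-1 is a dimer of Jun, Fos and ATF proteins, and Atf3 and Jun are transcription factors that injured neurons switch on. The motif was searched on both strands (TGACTCA on the other) in the 250 bases before each RefSeq transcription start on GRCr8, and the 2 spellings do not overlap each other. It was present in 1093 of 27457 promoters (3.98%), and 2 or more copies in 31 (0.113%). Among the 54 members with a listed promoter, 4 held it (7.41%), namely Sprr1a, Cntn4, Epha10 and Rtn4ip1, and only Sprr1a held 2 copies, which begin 147 and 117 bases before the start. Cntn4, the other called gene among these, is printed beside it with its single copy 187 bases before the start. Capitals mark the motif, 5′ to 3′ on the gene's strand, and a match is a description of letters and not a binding site.
Sprr1a (chr2:180752626-180752875, minus strand): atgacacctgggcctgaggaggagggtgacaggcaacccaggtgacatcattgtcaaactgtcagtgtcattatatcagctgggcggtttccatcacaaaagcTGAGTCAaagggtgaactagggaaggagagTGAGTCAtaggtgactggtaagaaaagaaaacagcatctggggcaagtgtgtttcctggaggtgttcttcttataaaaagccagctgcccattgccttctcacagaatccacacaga
Cntn4 (chr4:140180571-140180820, plus strand): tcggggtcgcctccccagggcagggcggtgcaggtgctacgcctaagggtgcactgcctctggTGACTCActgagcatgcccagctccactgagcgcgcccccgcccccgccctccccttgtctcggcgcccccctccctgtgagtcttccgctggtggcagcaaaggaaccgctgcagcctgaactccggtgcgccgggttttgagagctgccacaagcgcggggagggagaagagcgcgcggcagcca

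The proteins that carry guidance signals to the cytoskeleton were divided. All 4 stathmins, which bind tubulin and destabilise microtubules, lay below normal at every time from 24 to 168 hrs under each of 3 scalings, with medians of -0.54, -0.45, -0.69, -0.80 and -0.30, and none reached 2-fold. Stmn2, known as a neuronal growth cone protein, had 3727 in normal brain and 3544, 2886, 3082, 2969, 2402 and 3118 after eMCAo. Stmn3 had 6490 in normal brain and 6567, 5240, 5868, 5025, 3867 and 5021, lowest at 120 hrs like Stmn2, with a difference of -0.94 there. Dpysl3, a collapsin response mediator of growing axons, lay above normal at all 6 times under each of 3 scalings, with 26.0 in normal brain and 57.2, 61.9, 63.0, 81.3, 48.4 and 31.9 after eMCAo. Its difference was largest at 72 hrs, 0.80, and at these low intensities it depended on the background model (1.28 with a floor of 16 in its place). Dpysl4 differed by -0.55 at 72 hrs, and Dpysl5 stayed at or under 20.1.

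**Figure D2:**
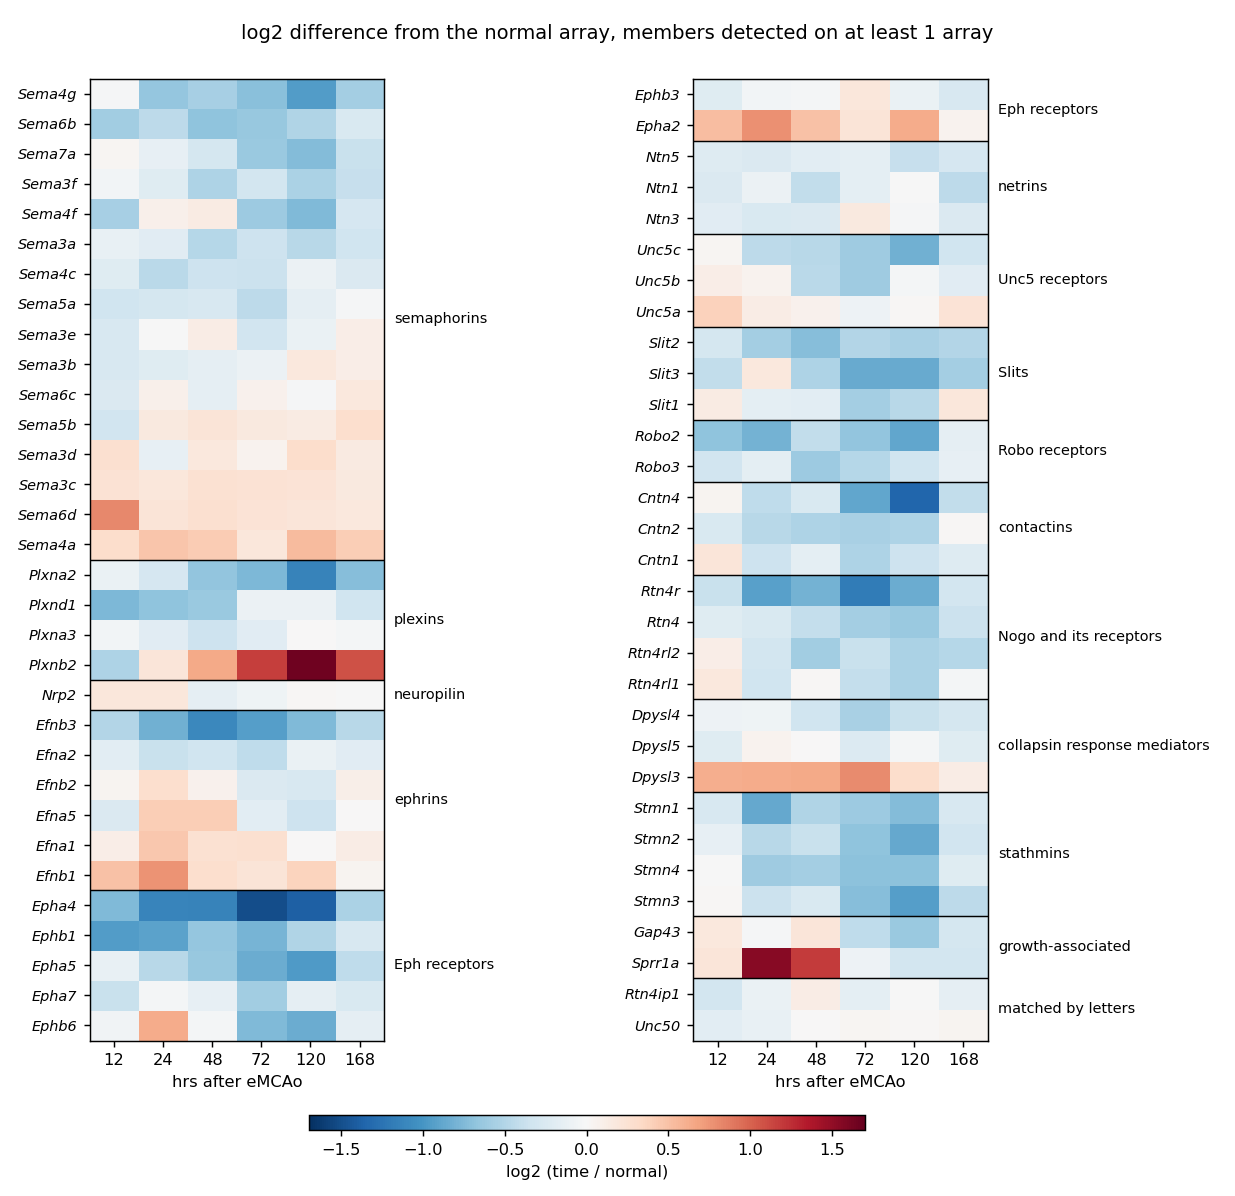
Each cell is the log2 difference from the normal array of 1 member (rows, by role) at 1 time after eMCAo (columns, hrs), blue below normal and red above, for the 63 members detected on at least 1 array. Plxnb2 at 72 to 168 hrs and Sprr1a at 24 and 48 hrs are the only members at least 2-fold above normal, and the blue columns are deepest at 72 and 120 hrs.

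As a group the members lay below normal by less than 2-fold. Their median difference was -0.13 (12 hrs), -0.18 (24 hrs), -0.29 (48 hrs), -0.43 (72 hrs), -0.38 (120 hrs) and -0.25 (168 hrs), while the median of all detected genes stayed between -0.07 and -0.02. Of the 24 members with a mean intensity of at least 100, the medians were -0.09, -0.30, -0.28, -0.59, -0.63 and -0.32 in the same order. The added 16 units matter less for these than for dim genes, though some of their calls still changed with the background setting. Among these 24, 10 (41.7%) lay below normal on all 6 arrays and 2 (Efnb1 and Sema4a) above on all 6, against 27.2% and 20.2% of 5048 genes as bright. The lowest of the 6 arrays was the 120 hrs one for 11 of the 24 (45.8%), against 25.1% of those genes. Below normal on all 6 arrays were 12 of the 24 with median scaling, against 23.4% of these genes, and 8 without normalization between arrays, against 16.7%.

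**Figure D3:**
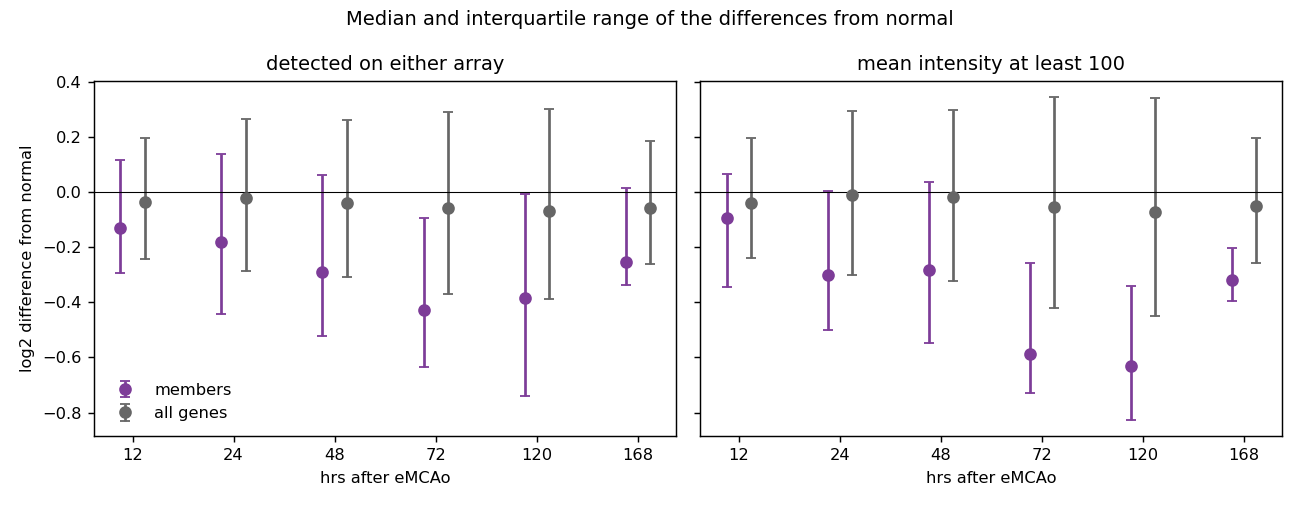
Points give the median log2 difference from normal at each time after eMCAo (hrs) and bars the interquartile range over genes, for members (purple) and all genes (grey), on the left for genes detected on either array and on the right for genes with a mean intensity of at least 100. The members' median is below that of all genes at all 6 times in both panels, and it is lowest at 72 hrs on the left (-0.43) and at 120 hrs on the right (-0.63).

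Markers of cell types moved on the same arrays. The summed intensity of 11 of 11 neuronal markers, all detected in normal brain, was 16263 to 29212 after eMCAo, lowest at 120 hrs, against 29517 in normal brain, and their median difference was 0.01, -0.20, -0.40, -0.78, -0.90 and -0.44 in order of time. All 7 striatal neuron markers were below normal at every time, with a sum of 1711 to 4950 after eMCAo against 13237 in normal brain and a median of -1.91 at 12 hrs and -3.11 at 120 hrs. The 7 astrocyte markers measured had a sum of 31106 to 45913 after eMCAo against 31272 in normal brain. Yet 5 or 6 of them lay below normal at every time, and only 1 was called higher. Their median difference was -0.34, -0.77, -0.44, -0.40, -0.47 and -0.45 in order of time. All 7 measured oligodendrocyte markers were below normal at 24 hrs, 5 of them by 2-fold or more, with a sum of 11155 against 21920 in normal brain and a median of -1.04. Endothelial markers, of which Cdh5 was not detected in normal brain, summed to 2142 at 12 hrs, 2320 at 24 hrs and 4749 at 72 hrs against 4558 in normal brain. At 12 and 24 hrs only 1 of the 5 detected was called lower, and the medians were -0.45 and -0.26. In bulk tissue fewer cells of a type and less RNA per cell cannot be told apart, and the part of these shifts in the lower values of the members was not tested.

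Plxnb2 was highest on the array where the microglia and macrophage markers were highest. The summed intensity of the 6 measured was 2173 (12 hrs), 4327 (24 hrs), 6764 (48 hrs), 11756 (72 hrs), 18987 (120 hrs) and 11843 (168 hrs), against 1932 in normal brain, with none at 0. The sum of 5 fibroblast and meningeal markers was also highest there (10524 at 120 hrs against 2088 in normal brain). At 12 hrs, where Plxnb2 was below normal, the list went both ways, with 3 markers below normal and 3 above and a median of 0.22. The part of these cells in the Plxnb2 values was not tested. Genes of other tissues differed from normal on every stroke array. The sum of 4 hypothalamic genes was 2796 (12 hrs), 2081 (24 hrs), 197 (48 hrs), 345 (72 hrs), 6910 (120 hrs) and 1846 (168 hrs), against 137 in normal brain. Red cell genes summed to 10868 at 12 hrs and 5680 at 24 hrs against 424 in normal brain, choroid plexus genes to 18412 at 12 hrs and 8457 at 24 hrs against 5497, and pituitary genes to 1790 at 120 hrs against 66.7. Red cell genes summed to 1439 and 1441 at 48 and 72 hrs, and to only 182 and 90.4 at 120 and 168 hrs. Choroid plexus genes summed to 1808, 1672 and 1962 at 48, 72 and 120 hrs, and to 5418 at 168 hrs. These arrays include every one on which a member was called, and the part of such tissue in the members' values was not tested.

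**Figure D4:**
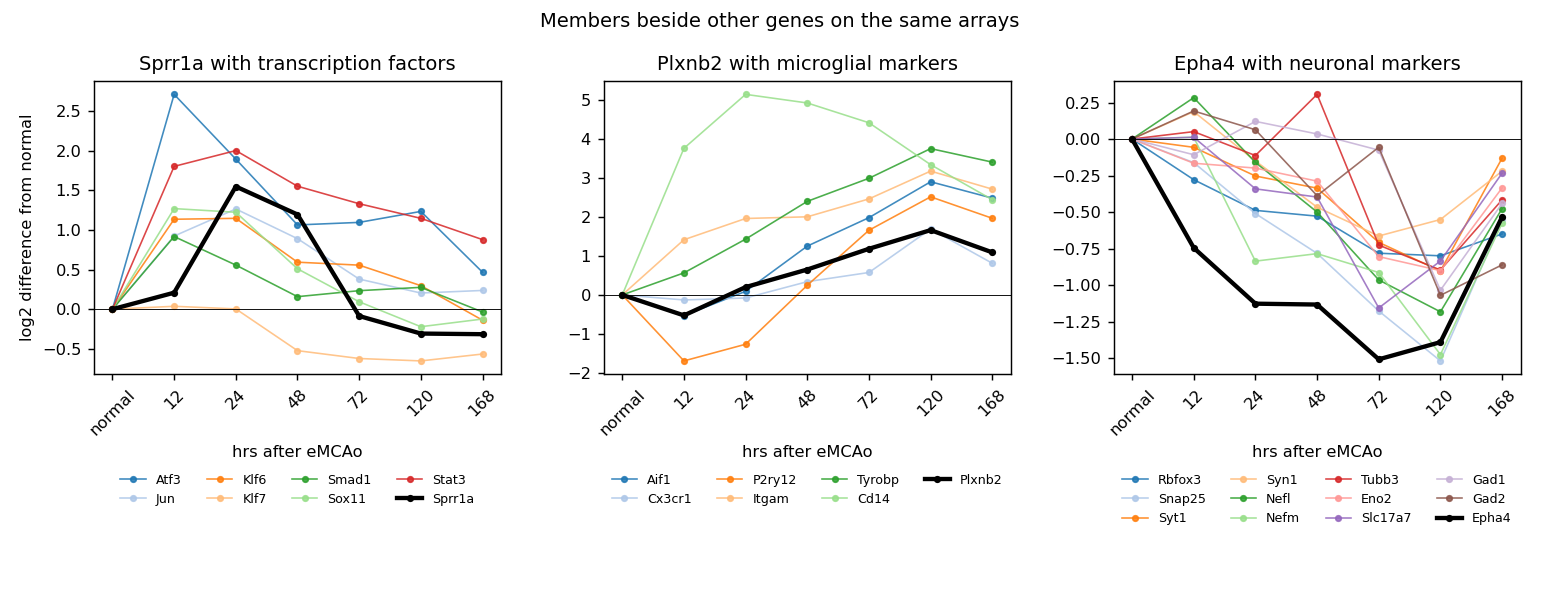
Lines give log2 differences from the normal array at each time after eMCAo (hrs), with the member in black and other genes of the same arrays in colour, 1 array per point. Sprr1a is drawn with the 7 transcription factors of the regeneration list, Plxnb2 with 6 microglia and macrophage markers and Epha4 with 11 neuronal markers. Sprr1a is highest at 24 hrs (1.55), Plxnb2 at 120 hrs (1.66) like 5 of its 6 markers, and Epha4 is lowest at 72 hrs (-1.51).

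The other genes of the pathway were read from lists of axon growth and guidance genes. The lists were chosen with earlier results of these data known, so their counts are descriptions only. In the growth cone and regeneration list 15 of 34 detected genes were at least 2-fold higher at 1 or more times and 7 lower. The background over all detected genes was 12.1% higher and 7.07% lower. Hspb1, a small heat shock protein that aids the survival of injured neurons, was higher at every time, by 23.4-fold at 12 hrs and still by 2.82-fold at 168 hrs, with 11595 at 24 hrs against 223 in normal brain. Tubb6, a beta tubulin, was 13.3-fold higher at 24 hrs. The transcription factors Stat3 and Atf3 had 410 at 24 hrs against 72.0 in normal brain, and 216 at 12 hrs against 10.8 in normal brain. Sprr1a was highest on the array where Hspb1, Tubb6 and Stat3 were highest, 1 time point after Atf3. The median difference of the whole list at 24 hrs was only 0.20, and a link of these genes to Sprr1a was not tested. Among the 16 detected inhibitors of growth and their receptors 8 were lower and 2 higher at 1 or more times, beside the same background. Lingo1, a partner of the Nogo receptor, had 606 at 72 hrs against 1596 in normal brain, 3.12-fold lower at the time when Rtn4r was lowest.

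Of 14 other guidance ligands and receptors, 2 were lower and 1 higher at 1 or more times. Celsr3, a cadherin that guides forebrain tracts, was lower by 2.02-fold (48 hrs), 2.15-fold (72 hrs) and 2.01-fold (120 hrs). Cxcr4, a chemokine receptor of migrating neurons and of leukocytes, was 3.38-fold, 4.73-fold and 4.53-fold higher at these times. Of 13 axonal adhesion genes 2 were lower and 1 higher, with Negr1 at 2.11-fold, 2.04-fold and 2.28-fold lower at 48, 72 and 120 hrs. Of 39 genes that transmit guidance signals 5 were lower and 5 higher, among them Pdlim7, an actin-associated protein, 4.75-fold higher at 72 hrs. Over all detected genes 12.1% were higher and 7.07% lower at 1 or more times. The lists were not drawn blind to these data, so no enrichment is read from their counts.

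The study divides its times into an acute and a recovery phase, so the 4 recovery arrays (48 to 168 hrs) were compared with the 2 acute arrays (12 and 24 hrs) with limma over 9449 genes. Here times stand in for replicates, so p-values measure the spread between times and not between animals. No member of 58 tested passed an adjusted p of 0.05, and neither did any of the 9449 genes (0.0% higher and 0.0% lower). At an unadjusted p under 0.05 there were 10 members (17.2%), 2 higher and 8 lower in recovery, against 23.4% of all genes. Plxnb2 came closest, 1.31 higher in recovery on the log2 scale (SE 0.31, adjusted p = 0.0836), and all 4 recovery arrays lay above both acute arrays. On the lower side Plxna2 differed by -0.62 (SE 0.17, adjusted p = 0.103), Slit3 by -0.59 (SE 0.20, adjusted p = 0.144) and Sema7a by -0.46 (SE 0.16, adjusted p = 0.152). Plxnd1 was higher by 0.43 (SE 0.18, adjusted p = 0.206) and Ephb1 by 0.37 (adjusted p = 0.237). Without the 48 hrs array Plxnb2 passed (adjusted p = 0.0369), as did 565 of all genes.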

How the data were processed

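Groups were taken from the labels, 1 array each, so no group had replicates. The authors deposited background-subtracted intensity values on a linear scale, with 20.8% to 21.9% below 0 on each array. The study's methods name BeadStudio, the submitters' processing notes GenomeStudio 1.8.0, and a normalization to 5S rRNA is named without saying for which arrays. Columns of 12 further arrays (48 columns) matched no sample and were not used.

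Probes were named through the platform's table. Of 22523 probes 13793 had 1 gene symbol, 0 several and 8730 none, and 71 of the 72 members' symbols equalled the RefSeq symbol. Each gene was read from its brightest probe over the 7 arrays. The deposited intensity was passed through the normexp background model (limma 3.58.1, R 4.3.3), with 16 added before log2 and quantile normalization between arrays. The planned neqc normalization was not possible, as no detection p-values or control probes matched these arrays. Detection limits were 8.72 to 10.1 units, taken at the 98th percentile of the negative values with their sign turned. For the phases, limma's lmFit and eBayes (trend, robust) gave two-sided p-values for genes detected on 2 or more stroke arrays, adjusted by Benjamini-Hochberg, and the code was tested on simulated data. Since nothing says that arrays of a phase come from like samples apart from time, its p-values may measure technical spread too. The settings varied were the scaling (by medians, or none), 50 units added, a floor of 16 without the background model, the mean of a gene's probes, a doubled detection limit, other eBayes settings, and each array left out.

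The members and lists were chosen with earlier results of these data known. Named with every value were members at least 2-fold from normal on 2 or more arrays and the extreme member in each direction at each time, then members past 2-fold on 1 array, list genes past 2-fold on 3 or more arrays (at most 4 a list), and the 3 members with the smallest p in each direction between phases. Efnb1, Epha2, Epha5, Ephb6, Sema4a, Sema4g, Sema6b, Plxnd1, Nrp2, Robo2, Unc5c, Rtn4, Gap43, Stmn2, Stmn3, the Dpysl genes and single markers were named after their values were seen, as was the motif chosen. Promoter sequences came from RefSeq.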

Additional observations from a re-analysis of the deposited data

Results flagged for a closer look

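Sprr1a was high on 1 of the 4 recovery arrays. It had 655 at 48 hrs against 297, 240 and 207 at 72, 120 and 168 hrs, and the gap of the 48 hrs value to the nearest other was 0.848 of the range on the log2 scale, above Dixon's 95% critical value for 4 values. Chance passes this limit in about 1 of 20 groups, so some pass when many genes are searched, and these 4 arrays are time points and not replicates. The 48 hrs value was already called above, and the 24 hrs array, outside this group, stood higher still at 870.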

How the results depend on the processing

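No alternative reversed the direction of a called value. Of the summary values 119 kept their size and 29 moved, as follows. With median scaling the members' median at 168 hrs was -0.15. Without normalization between arrays the medians were -0.076 at 24 hrs, -0.21 at 72 hrs and -0.23 at 120 hrs, while the median of all genes moved to 0.18 at 72 hrs and 0.13 at 120 hrs, and 2 members were higher and 1 lower at 72 hrs. With 50 units added the medians were -0.25 at 72 hrs and -0.27 at 120 hrs, 1 member was lower at 72 hrs and 0 were higher at 168 hrs, where Plxnb2 stood at 0.96. With a floor of 16 and no background model, which enlarges the differences of dim genes, members were higher and lower in numbers of 2 and 2 at 12 hrs, 2 and 4 at 24 hrs, 2 and 5 at 48 hrs and 2 and 7 at 72 hrs, and 10 were lower at 120 hrs, against 4.52% and 2.18%, 6.93% and 5.08%, 7.82% and 5.23%, 10.3% and 7.64%, and 8.36% of all genes, and the medians were -0.57 at 72 hrs and -0.55 at 120 hrs. The genes added there were dim ones (Robo2, Rtn4rl2, Sema6b, Slit3, Dpysl3 and Sema6d) and brighter ones (Epha5, Ephb1, Ephb6 and Sema4g, mean intensity 218, 182, 148 and 63.7), and Cntn4, Plxna2 and Rtn4r passed at further times. With the detection limit doubled the medians were -0.56 and -0.53 at 72 and 120 hrs. Of the alternatives chosen after seeing the data, members with a mean intensity of at least 100 had medians of -0.30, -0.59 and -0.63 at 24, 72 and 120 hrs, and leaving out the 120 hrs array left 3 lower members. Between the phases 0 to 1 members passed when each array was left out in turn, Plxnb2 without the 48 hrs array (adjusted p = 0.0369), and its lowest adjusted p over the settings was that one. With the floor of 16 Nrp2 passed (adjusted p = 0.0386), 1 of 12 genes to do so in all. Called values kept their side of 2-fold in every alternative except Plxna2 at 120 hrs and Rtn4r at 72 hrs (without normalization, and with 50 units added) and Plxnb2 at 168 hrs (with 50 units added). No paired analysis was possible because each group had 1 array and no replicate numbers were shared. Signal over background limits the folds most for the detected members outside the 24 with a mean intensity of at least 100.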

Other observations

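Some genes of the pathway lists, chosen here after their values were seen, bear on the same machinery. Rnd1, a small GTPase that binds plexins, had 121 at 72 hrs and 127 at 120 hrs against 306 in normal brain, 2.75-fold and 2.60-fold lower. Rhoa, the GTPase that contracts growth cones, went the other way, with 382 at 72 hrs and 377 at 168 hrs against 109 in normal brain (2.46-fold and 2.86-fold). Among microtubule genes Dclk1, a doublecortin-like kinase, had 869 at 72 hrs and 780 at 120 hrs against 2144 in normal brain (2.99-fold and 3.13-fold lower), while the tubulin Tubb2b was 3.43-fold higher at 48 hrs and 1.02-fold at 168 hrs. Arg1, an arginase of macrophages that also aids axon growth, was 6.48-fold higher at 48 hrs, and Gal, which encodes the neuropeptide galanin, 5.05-fold higher at 24 hrs. The sum of the hypothalamic genes was also raised on the 24 hrs array, 2081 against 137 in normal brain. The part of such tissue in the Gal value was not tested.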
